A study of Mus musculus with 4 samples.

Results

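The mitochondrial ribosomal protein genes were taken as every protein-coding gene of GENCODE release M21 whose symbol begins with Mrpl or Mrps followed by a number. This rule gave 78 of the 21853 protein-coding genes on chromosomes 1 to 19, X and Y. By their symbols, 49 encode proteins of the large subunit (Mrpl) and 29 proteins of the small subunit (Mrps), and they lie on 17 chromosomes. V5 CUT&RUN was performed on a Foxr2 p53LOF neurosphere line (2 replicates) and on a V5 control line (2 replicates), both from brain tumors raised in C57BL/6J mice by in utero electroporation (IUE), which delivers vectors into neural stem cells of the embryo. The Foxr2 p53LOF line carries V5-tagged FOXR2 under the ubiquitous CAG promoter in a piggyBac vector, together with a CRISPR guide that disrupts Trp53. The control line came from another IUE model, has no V5 tag and is labelled H3.3G34R, so the tag and the remaining genotype cannot be told apart in a comparison of the lines. The replicates of a line come from that line alone, so their spread may be technical.

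Mitochondria keep a small genome that encodes core subunits of the respiratory chain, and they translate it on ribosomes of their own. The RNAs of this ribosome are made inside the organelle, whereas all of its proteins are encoded in the nucleus, made in the cytoplasm and imported. Many of these proteins descend from those of bacterial ribosomes, and others were added during the evolution of mitochondria. Promoters of nuclear genes for mitochondrial proteins are known to be bound by the ETS factor GABP (Gabpa with Gabpb1), by NRF1 and by YY1. FOXR2 belongs to the forkhead family of transcription factors.

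In CUT&RUN a nuclease tethered to the antibody releases the DNA around the tagged protein, and each peak has a fold enrichment, the fragments at its summit over the background of the library, with 1 added to both. The Foxr2 p53LOF lists held 31909 and 38580 peaks, and the control lists held 308 and 124. To pass a fold of 6, a summit needed at least 13 fragments (replicate 1) or 18 (replicate 2) of the tagged line, and 16 or 9 of the control. A reproducible site is a stretch covered in both Foxr2 p53LOF replicates by peaks with a fold above 6 and a -log10 q above 6, shorter than 10000 bp and not overlapping a control peak, and there were 11947 such sites. A promoter site is one within 1 kb of any annotated start of a coding transcript of that gene. For each gene the highest promoter fold was taken in each of the replicates, and the lower of the pair is called its lower fold.

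Foxr2 sites lay at the promoters of most mitochondrial ribosomal protein genes, of both subunits, at strengths close to those of other bound promoters. A promoter site was found at 64 of the 78 genes (82.1%), against a background of 39.3% of all protein-coding genes (8599). Over the gene body with 10 kb on either side, 65 genes (83.3%) had a site, against 49.9%. Before the thresholds, a deposited peak lay within 1 kb of a start at 76 genes in replicate 1 (97.4%, background 53.4%) and at all 78 in replicate 2 (100%, background 54.4%). Both replicates had a peak at 76 genes (97.4%, background 51.5%). No gene of the family had a control peak at its promoter in either control replicate (background 0.133%), and no control peak fell in any gene body or within 10 kb of it. No test was run on these shares, because the genes were chosen with earlier results known. A contrast of the lines, 2 samples against 2, could not give a two-sided exact permutation p below 0.333.

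The median lower fold of the 64 genes with a promoter site was 10.6, with a range of 6.19 to 31.2. The median over all 8599 genes with a promoter site was 10.2. The median gene of the family stood at percentile 54.4 of that distribution, and 34 of the 64 were above its median. The lower fold was over 10 at 35 of the 64 genes and at 4324 of the 8599. These are 44.9% of the family and 19.8% of all protein-coding genes. It was over 20 at 6 genes of the family, and that share was not computed over all genes. The share of promoters with a site was thus above the background, while the strength of the sites was ordinary, within the range of 6.19 to 70.7 over all genes.

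**Figure D1:**
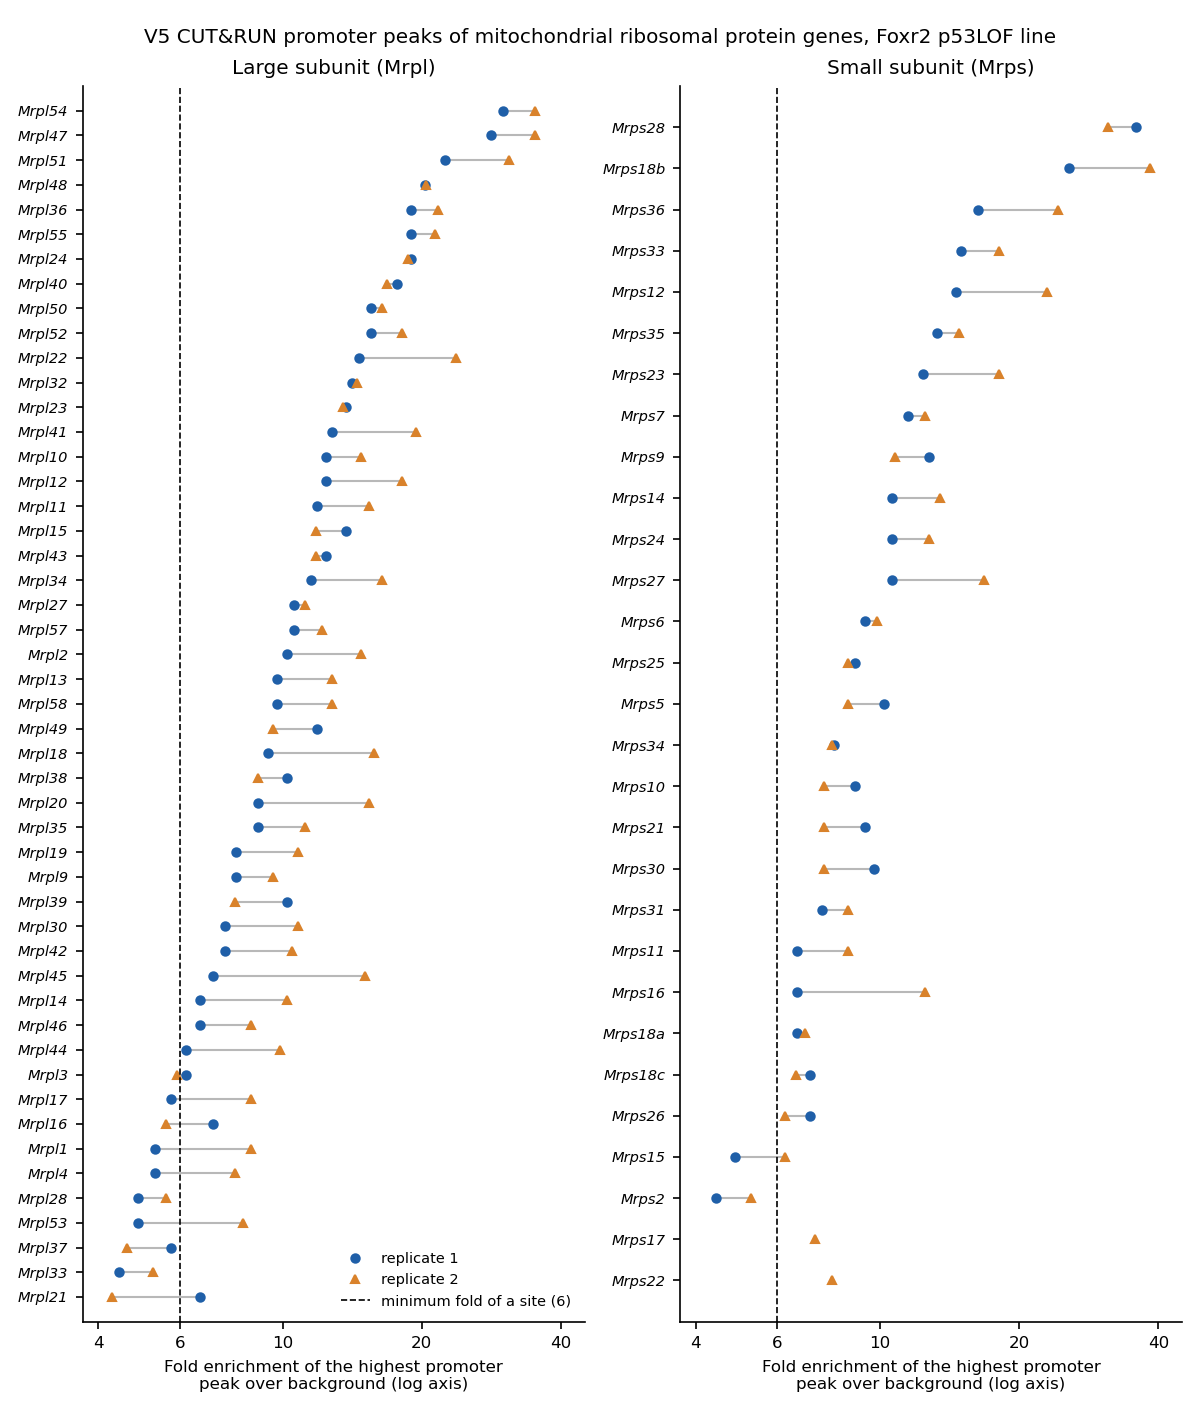
Fold enrichment of the highest peak within 1 kb of a start for each of the 78 genes, on a log axis, with circles for Foxr2 p53LOF replicate 1, triangles for replicate 2 and a line joining the replicates of a gene. The dashed line marks the minimum fold of 6, and genes are ordered by the lower fold. Mrps17 and Mrps22, at the bottom right, have a peak in replicate 2 only.

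The 10 genes with the highest lower folds included 8 of the large subunit and 2 of the small subunit. Mrps28, a small subunit gene, came first. Its fold was 35.8 in replicate 1 (95% Poisson interval of the count of 80 fragments, 28.5 to 44.4) and 31.2 in replicate 2 (25.3 to 38.1, 94 fragments). These intervals cover counting error only. The site covered chr3:8922676-8924410 of GRCm38, and no other protein-coding gene starts within 1 kb. Mrpl54 followed with folds of 30 and 35.2 at chr10:81265931-81268782, a promoter it shares with Apba3, whose start lies 26 bp away on the opposite strand. Mrpl47, the counterpart of a bacterial protein near the exit of the peptide tunnel, had folds of 28.3 and 35.2. Its 5′ end overlaps that of Ndufb5, a subunit of respiratory complex I, by 20 bp. In these 3 genes the replicates lay close together and far above the threshold.

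Mrps18b had folds of 25.6 and 38.4 at chr17:35915667-35919881, the highest replicate 2 value of the family. It is 1 of 3 paralogs of bacterial S18, and the others were much weaker. Mrps18a had folds of 6.63 and 6.90, and Mrps18c had 7.07 and 6.57. All 3 thus had a promoter site, but 2 of them stood just above the threshold. Mrpl51 followed with folds of 22.5 and 30.9, beside Ncapd2, a condensin subunit.

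Mrpl48 had folds of 20.3 and 20.4. That site (chr7:100589900-100591867) lies at an alternative start, and the site at the principal start had folds of only 6.63 and 8.21. Mrpl36, the counterpart of bacterial L36, had 19 and 21.7 at its principal start (chr13:73330250-73332504). At the start of Ndufs6, another complex I subunit, replicate 1 had a separate peak with a fold of 9.72, whereas replicate 2 had a single peak of 5364 bp over both starts, with its summit at Mrpl36. Mrpl55 had 19 and 21.4, Mrpl24 had 19 and 18.7, and Mrpl40 had 17.7 and 16.8. Mrpl40 shares its site with the histone chaperone gene Hira, which starts 175 bp away on the opposite strand. The lower fold was thus at least 16.8 in all 10 genes. They were chosen by that fold, so their place above the median of bound promoters in both replicates follows from the choice.

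The sequences at the starts of these genes were searched for 9 short motifs on both strands in the 300 bases from 250 before to 50 after the principal start, in GRCm38. None of the motifs contains another. The ETS core CCGGAAG was present at 29 of the 78 genes (37.2%), against 11.2% of all protein-coding genes and 20% of all genes with a promoter site. The cytoplasmic ribosomal protein genes had it at 27.7% and the nuclear respiratory chain genes at 18.1%. In the family the share was 33.3% in the lowest tertile of promoter GC content, 35.9% in the middle tertile and 41.7% in the highest, where all genes had 3.34%, 13.8% and 16.3%. Of the 33 cores, 27 lay within 50 bp of the start, with a median distance of 21 bp. The window ends 50 bases after the start, so a downstream core had to be that close, and 20 of the 33 were upstream. These distances were not computed for all genes. The following sites are shown for the 5 genes with the highest lower folds among those that carry a core. Each is given as 29 bases read along the strand of the core, with the core in capitals. Mrpl52 has another core, and that of Mrpl48 is at the principal start, 8146 bp from the replicate 1 summit of its strongest site.
Mrps18b, chr17:35916380-35916408, plus strand: cgtacggcctgCCGGAAGagcgactgcgc
Mrpl51, chr6:125192099-125192127, plus strand: caggggctaaaCCGGAAGtatttgactgg
Mrpl48, chr7:100583147-100583175, plus strand: gcatcttggttCCGGAAGtttttaaaacc
Mrpl52, chr14:54426900-54426928, minus strand: gagcaagggaaCCGGAAGtgggcgtggcc
Mrpl22, chr11:58171600-58171628, plus strand: cttttccggtcCCGGAAGccggcctcgga

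In the family the ETS core was present at 23 of the 64 genes with a promoter site (35.9%) and at 6 of the 14 without (42.9%), a difference that was not tested. Over all genes 20% of those with a promoter site and 5.41% of those without had it. These groups are unlike, since 12 of the 14 genes of the family without a site had a peak in both replicates, which most other genes without a site lack. Among the 64, the median lower fold was 10.6 with a core and 10.6 without, and over all genes with a promoter site it was 10.2 in both cases. Of the 10 genes with the highest lower folds, 3 had a core. Among them is Mrpl48, whose core lies 8146 bp from the replicate 1 summit of its strongest site. The 6 cores of genes without a promoter site are printed for comparison with those above.
Mrps22, chr9:98601673-98601701, minus strand: aacctctcgagCCGGAAGttgctctatcg
Mrpl3, chr9:105053238-105053266, plus strand: tgagaaacggaCCGGAAGtggcccggctg
Mrpl4, chr9:21002764-21002792, minus strand: ccacttgacagCCGGAAGccccgacaccg
Mrpl17, chr7:105811307-105811335, minus strand: gcatgctccgcCCGGAAGgcgcctcctcc
Mrpl33, chr5:31613937-31613965, plus strand: ccgcgcatgccCCGGAAGtagtcgttgag
Mrpl53, chr6:83109038-83109066, plus strand: ccgcggagccgCCGGAAGcggtccgttcc

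Longer stretches are given, along the strand of the gene and ending at the base before the principal start, for 4 promoters that span the range of the data. Mrps28 has the highest lower fold and holds none of the motifs in this stretch. Mrpl22 (folds 14.6 and 23.7) holds an ETS core and the NRF1 core CGCATGCG in the same stretch. Its replicate 2 fold comes from a peak of 5472 bp whose summit lies 3244 bp from this ETS core and which also covers a start of Gemin5, so it was not measured at the printed bases. Mrpl43 (folds 12.4 and 11.8) holds a pair of ETS cores between its start and that of Twnk, the mitochondrial DNA helicase, 116 bp away on the opposite strand. Mrps22, which had no peak in replicate 1 and a fold of 7.88 in replicate 2, also holds an ETS core. Motifs are in capitals.
Mrps28, chr3:8923919-8924038, minus strand: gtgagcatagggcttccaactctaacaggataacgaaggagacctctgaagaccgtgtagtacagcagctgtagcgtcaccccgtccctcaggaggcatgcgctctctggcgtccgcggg
Mrpl22, chr11:58171541-58171660, plus strand: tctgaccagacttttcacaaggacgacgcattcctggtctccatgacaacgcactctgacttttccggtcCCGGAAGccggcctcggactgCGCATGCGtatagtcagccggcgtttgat
Mrpl43, chr19:45006443-45006557, minus strand: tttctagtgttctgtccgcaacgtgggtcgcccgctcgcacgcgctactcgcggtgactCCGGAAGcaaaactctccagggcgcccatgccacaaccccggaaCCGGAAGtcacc
Mrps22, chr9:98601661-98601780, minus strand: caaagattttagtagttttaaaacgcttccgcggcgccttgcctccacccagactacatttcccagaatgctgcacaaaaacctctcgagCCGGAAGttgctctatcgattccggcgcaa

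The YY1 core AAGATGGCG was present at 8 of the 78 starts (10.3%), against a background of 1.87% and 3.91% of all genes with a promoter site. It lay downstream of the principal start in 6 of the 8. Mrps27, Mrps10 and Mrps18a held an ETS core as well. The YY1 core of the most strongly bound gene that carries it, and that of Mrps27, are shown with the core in capitals.
Mrpl36, chr13:73330968-73330996, minus strand: gccaggaagaAAGATGGCGtaaggtcacg
Mrps27, chr13:99344790-99344818, plus strand: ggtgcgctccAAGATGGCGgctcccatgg

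The other motifs were closer to the background. The NRF1 core was present at 6.41% of the family (2.64% of all genes), the NF-Y box CCAAT at 34.6% (38.1%), the GC box GGGCGG at 48.7% (45.3%), the E-box CACGTG at 6.41% (7.76%) and the cyclic AMP response element TGACGTCA at 2.56% (2.45%). The forkhead core GTAAACA was present at 1 of the 78 starts (1.28%, against 3.02% of all genes). The ZNF143 core ACTACAATT was present at none (0.522% of all genes). A match is a description of the letters, and no match says only that they are not in this window.

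**Figure D2:**
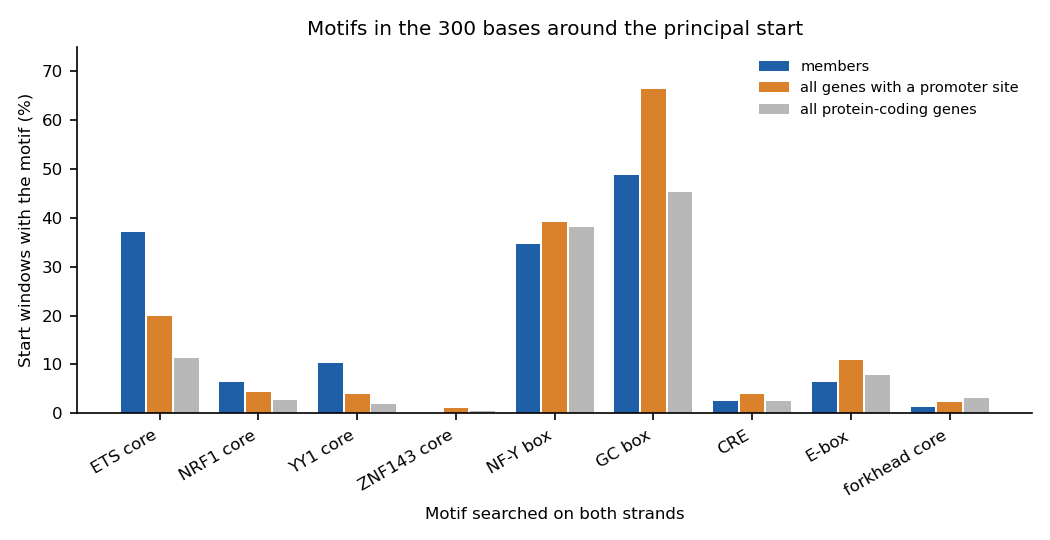
Percentage of windows of 300 bases around the principal start that hold each motif on either strand, for the 78 mitochondrial ribosomal protein genes, for all genes with a promoter site and for all protein-coding genes. The ETS core (37.2% against 20% and 11.2%) and the YY1 core (10.3% against 3.91% and 1.87%) stand higher in the family, and the GC box is lower in it than in all genes with a promoter site.

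The summits of the peaks mostly lay over 100 bp from the starts and from the ETS cores there. In replicate 1 the median distance of the summit from the nearest start was 217 bp at the 64 genes, and in replicate 2 it was 200 bp, against 208 bp in replicate 1 for all genes with a promoter site. Only 6 summits (9.38%) lay within 100 bp of a start, against 19.3% of all genes, whereas 44 (68.8%) lay between 100 and 300 bp, against 48.3%. The summits fell on both sides, with 18 genes at 100 to 200 bp downstream and 14 at 200 to 300 bp upstream. Where a site was shared with a divergent gene the summit was upstream in 10 of 22, and at the other 42 genes it was upstream in 18. The summits of the replicates were within 100 bp of each other at 38 of the 64 genes, with a median separation of 72.0 bp.

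**Figure D3:**
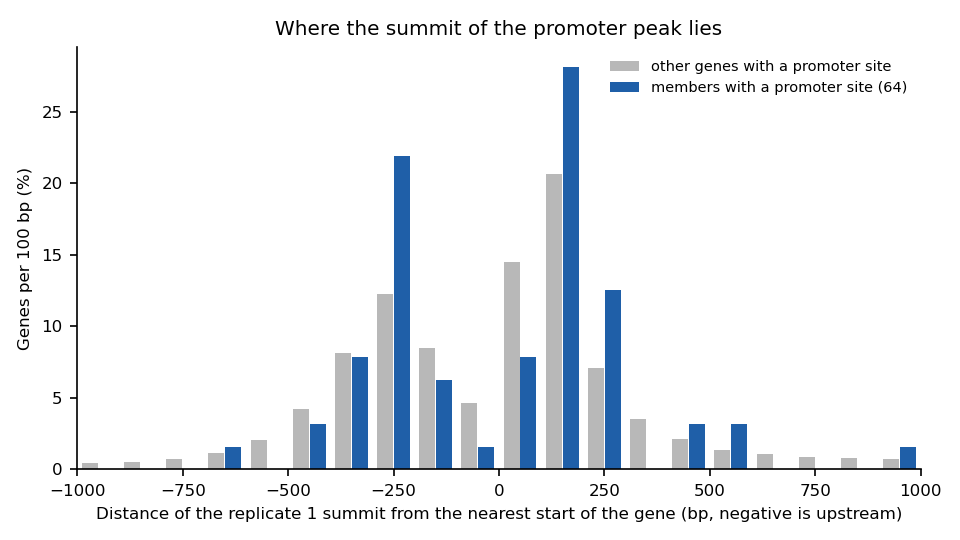
Percentage of genes by distance of the replicate 1 summit from the nearest start of the gene, in steps of 100 bp, for the 64 mitochondrial ribosomal protein genes with a promoter site and for other genes with a promoter site. The family has a peak at 100 to 200 bp downstream (28.1%) and another at 200 to 300 bp upstream (21.9%), and 1 gene, Mrpl34, lies beyond 1000 bp.

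The ETS core was also sought at the summits, in a shorter window and at the genes with a site only. Within 100 bp of the replicate 1 summit it was present at 6 of the 64 genes (9.38%), against 5.79% of all promoter sites. For the genes with a site, 26 of the 27 cores at their starts lay over 100 bp from the replicate 1 summit, with a median distance of 315 bp. The 6 genes with a core at the summit were Mrps33, Mrpl23, Mrpl57, Mrpl13, Mrpl19 and Mrps18a. In Mrpl13, for example, the core at chr15:55557547-55557575 was 54 bp from the summit and 187 bp downstream of the start.
Mrpl13, chr15:55557547-55557575, plus strand: gcggcaggaaaCCGGAAGtgcacgttgcg

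Of the 14 genes without a promoter site, 12 had a peak in both replicates that missed a threshold. Their folds ran from 4.42 to 7.07 in replicate 1 and from 4.27 to 8.54 in replicate 2. A fold of 6 or less in replicate 1 alone accounted for 5 genes, in replicate 2 alone for 3, and in both for 4. The remaining pair, Mrps17 and Mrps22, had no peak in replicate 1 and folds of 7.23 and 7.88 in replicate 2. Mrps17 is a counterpart of a bacterial ribosomal protein, and Mrps22 is particular to the mitochondrial ribosome and mutated in inherited disease of mitochondrial translation. A fold at or under the threshold is not absence of binding, since a site needed 13 fragments in replicate 1 and 18 in replicate 2.

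Among the large subunit genes without a site, those low in replicate 1 were Mrpl1 (folds 5.30 and 8.54), Mrpl17 (5.74 and 8.54), Mrpl4 (5.30 and 7.88) and Mrpl53 (4.86 and 8.21). Those low in replicate 2 were Mrpl16 (7.07 and 5.59), Mrpl21 (6.63 and 4.27) and Mrpl3 (6.19 and 5.91). Mrpl28 (4.86 and 5.59), Mrpl33 (4.42 and 5.26) and Mrpl37 (5.74 and 4.60) were below the threshold in both. In the small subunit Mrps15 had 4.86 and 6.24, and Mrps2 had 4.42 and 5.26. Of the 14, all but Mrpl37, Mrpl53 and Mrps22 have a bacterial counterpart. Just inside the threshold stood Mrpl44 (6.19 and 9.86), Mrps26 (7.07 and 6.24) and Mrps18c. For Mrpl44 the 95% interval in replicate 1, on 13 fragments, was 3.50 to 10.3, which includes the threshold. The same held in at least 1 replicate for 26 of the 64 genes with a site.

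By subunit, a promoter site was found at 39 of 49 large subunit genes (79.6%, median lower fold 11.5) and at 25 of 29 small subunit genes (86.2%, median 9.28). By ancestry, it was found at 37 of 48 genes with a bacterial counterpart (77.1%) and at 27 of 30 without (90.0%), with a median lower fold of 10.6 in both. Over all protein-coding genes the share was 39.3% and the median lower fold 10.2. The counts by subunit and ancestry describe the family and were not tested. Mrpl10 (12.4 and 14.8) and Mrpl12 (12.4 and 18.1), which form the stalk that recruits translation factors, had sites of nearly equal strength. Mrps12 (14.6 and 23.0), of the decoding centre, and Mrpl58 (9.72 and 12.8), a peptidyl-tRNA hydrolase built into the large subunit, were also bound. Mrps36 had folds of 16.3 and 24.3, although its product is now known as a component of the 2-oxoglutarate dehydrogenase complex. The 5 processed pseudogenes of the family (Mrpl23-ps1, Mrpl48-ps, Mrps36-ps1, Mrps36-ps2 and Mrps36-ps3) had no peak within 1 kb in any library. The share of other processed pseudogenes with a peak was not computed, so this absence has no background beside it.

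The replicates ordered the genes alike. At the 76 genes with a peak in both, Spearman's rho between the folds was 0.851 across genes, which share libraries and are not independent replicates, and it was 0.876 over the 11254 genes with peaks in both. Replicate 2 was higher at 54 genes (71.1%, against 71.8% of all genes), with a median ratio of 1.19 (1.15 over all genes). The ratios farthest from that median on the log2 scale were those of Mrpl21 (ratio 0.644) and Mrpl45 (2.14, from 7.07 to 15.1), whose product sits at the exit of the peptide tunnel and anchors the ribosome to the inner membrane. Mrps16 (1.88, from 6.63 to 12.5), Mrpl39 (0.776) and Mrps30 (0.777) followed. At all 76 genes the 95% counting intervals of the replicates overlapped.

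**Figure D4:**
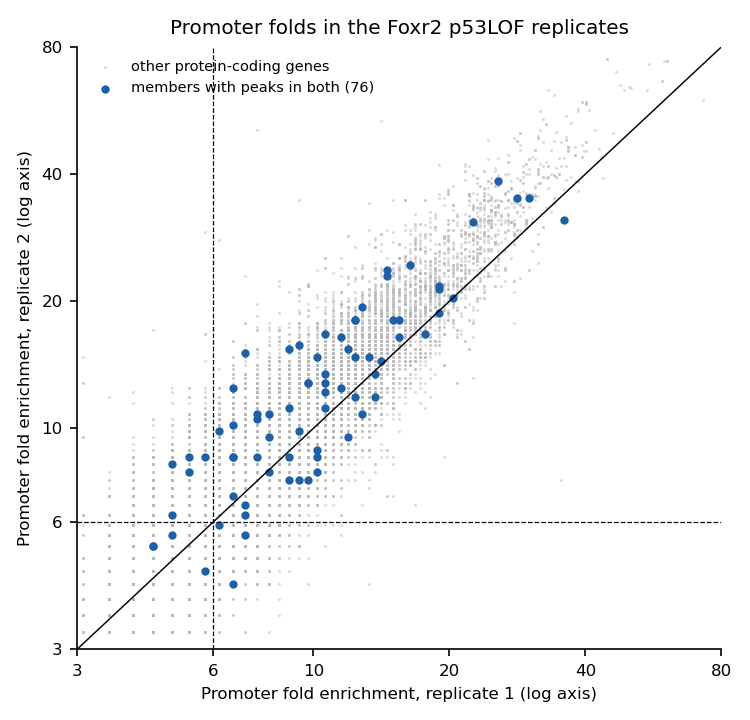
Promoter fold in Foxr2 p53LOF replicate 1 against replicate 2 on log axes, for the 76 mitochondrial ribosomal protein genes with a peak in both (large points) and other protein-coding genes (small points). The solid line marks equal folds and the dashed lines the minimum of 6. The family lies within the cloud of other genes, with 54 of 76 above the line, and 10 other genes lie beyond the axis limit of 80.

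Many of these promoters serve another gene too. Another protein-coding gene started within 1 kb of 34 of the 78 (43.6%), against a background of 12.9%. A promoter site was found at 32 of these 34 (94.1%), where all genes with such a neighbour had 75.9%, and at 32 of the 44 with no neighbour (72.7%), where all such genes had 34%. A peak at a shared site cannot be assigned to either gene. This includes genes with overlapping 5′ ends, such as Mrpl47 with Ndufb5 (28.3 and 35.2), and Mrps6, whose neighbours start on the same strand. At 22 genes the site was shared with a divergent partner, transcribed away on the opposite strand. The share of such genes over all genes was not computed, and the divergent pairs are ranked here by lower fold. The most strongly bound of these pairs were Mrpl54 with Apba3, Mrps18b with Ppp1r10 (177 bp between starts), Mrpl51 with Ncapd2 (464 bp), Mrpl40 with Hira, Mrpl50 with Zfp189 (83 bp, folds 15.5 and 16.4) and Mrps12 with Sars2, the mitochondrial seryl-tRNA synthetase (182 bp). Next were Mrpl32 with the proteasome gene Psma2 (75 bp, 14.1 and 14.5), Mrpl41 with Pnpla7 (935 bp, 12.8 and 19.4) and Mrpl10 with Lrrc46 (153 bp). Mrpl46 and Mrps11, which start 30 bp apart, share a single site with folds of 6.63 and 8.54, so the strongest sites of the 64 genes are 63 distinct ones, and 66 with the further sites of Mrpl36 and Mrpl48. At the 32 genes with a site and no neighbour, the median lower fold was 10.6, equal to that of the whole family.

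Promoter GC content, measured over the same 300 bases, moved with the presence of a site over all genes, and the shares in the family were close to each other. Of all genes, a promoter site was found at 14.3% in the lowest tertile (under 50.7% GC), at 41.7% in the middle tertile and at 61.6% in the highest (over 61.0%). In the family it was found at 12 of 15 (80%), 31 of 39 (79.5%) and 21 of 24 (87.5%). The part of GC content in the share of the family was not tested. The nearest groups in function had shares of the same order. The cytoplasmic ribosomal protein genes had a promoter site at 85 of 101 (84.2%, median lower fold 11), and the nuclear genes of the respiratory chain at 71 of 94 (75.5%, median 9.72).

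**Figure D5:**
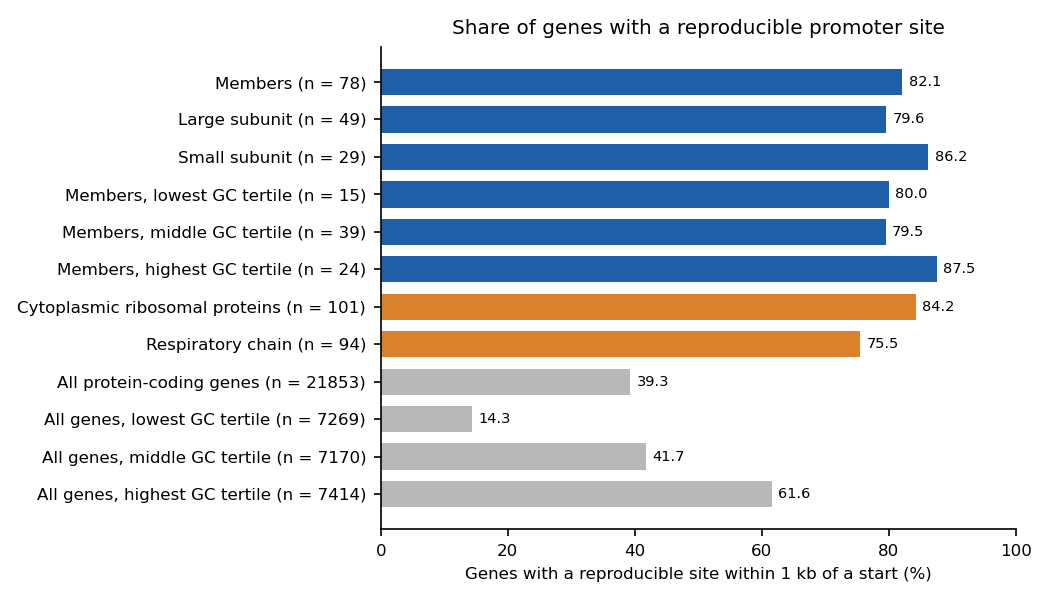
Percentage of genes with a reproducible site within 1 kb of a start, for the mitochondrial ribosomal protein genes as a whole, by subunit and by tertile of promoter GC content, for cytoplasmic ribosomal protein and respiratory chain genes, and for all protein-coding genes. The family stays between 79.5% and 87.5% in every tertile of GC content, while all genes range from 14.3% to 61.6%.

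The other genes of mitochondrial translation are given beside the same background of 39.3% of all protein-coding genes. The 5 subunits known by other names all (100%) had a promoter site, led by Ptcd3 (folds 31.4 and 40.1), Dap3 (17.2 and 18.1), a GTP-binding protein of the small subunit, and Chchd1 (13.3 and 12.5). Assembly factors had a site at 17 of 19 (89.5%), led by Mterf3 (23.0 and 30.2), Mrm1 (18.1 and 24), a methyltransferase of the large ribosomal RNA, and Tfb1m (17.2 and 21.4), a dimethyltransferase of the small one. Mterf4 (5.30 and 5.26) and Rbfa (6.19 and 4.27) had peaks but no site. Translation factors had a site at 8 of 12 (66.7%), led by Gfm2 (17.7 and 15.1), a ribosome recycling factor, Mtrf1l (14.6 and 17.1), a release factor, and Taco1 (13.7 and 14.5), an activator of cytochrome oxidase translation. In this list the initiation factor gene Mtif3 and Mtfmt, which encodes the formylase of the initiator tRNA, had no peak in replicate 1 and a fold of 5.59 each in replicate 2. The elongation factor genes Tsfm (4.86 and 4.93) and Gfm1 (5.30 and 6.90) had peaks in both replicates but no site.

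Of 14 genes for mitochondrial transcription and biogenesis, 12 had a promoter site (85.7%, against 39.3% of all protein-coding genes). The highest were Tfb2m, an initiation factor of mitochondrial transcription (23.9 and 29.2), the coactivator gene Pprc1 (22.1 and 29.9) and Gabpa, the ETS subunit of GABP (22.1 and 25.6). Mterf1a and Ppargc1a, the coactivator known as PGC-1α, had no promoter peak in either replicate.

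Over 1 kb from the start of any protein-coding transcript, 8 genes (10.3%) had a site in the gene or within 10 kb, against a background of 11.0%. Of these 11 sites, 3 lie within 1 kb of the start of another annotated transcript, not labelled protein-coding, and 7 genes keep a site without them. The highest lower folds were at an intragenic site of Mrps27 (chr13:99352078-99354143, 11 and 12.5), a site upstream of Mrpl24 in the neighbouring gene Hdgf (chr3:87910128-87911404, 9.72 and 13.1), within 1 kb of such a start of Hdgf, and an intragenic site of Mrpl48 (chr7:100554981-100556707, 9.28 and 19.7). Mrps27 had another at chr13:99412130-99413476 (9.72 and 9.20), beside a start of 6430562O15Rik. Mrpl58 had one at chr11:115408274-115410714 (7.51 and 10.5), beside such starts of Ict1os and of Mrpl58 itself. The share of the family with such a site was thus near the background. By chromosome, all 11 genes on chromosome 11 had a promoter site, against 52.9% of all protein-coding genes there. None of the 3 on chromosome 9 did (Mrpl3, Mrpl4 and Mrps22), against 36.5%, and these chromosomes were picked after their values were seen. The median fold of all peaks on chromosome 9 was 1.08 times that of all chromosomes in replicate 1 and 1.13 times in replicate 2.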

How the data were processed

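The authors processed the V5 CUT&RUN reads with the GenPipes ChIP-seq pipeline, using Trimmomatic 0.39, BWA 0.7.17 on mm10, Picard 2.26.6 and MACS2 2.2.7.1, library by library. The fold enrichment deposited for a peak is a MACS2 ratio. The −log10 p, the −log10 q and the score (−log10 q times 10) deposited beside it come from the same step of the authors. The deposited column 10 is the offset of the summit. The thresholds on peaks follow the study's methods (fold and −log10 q above 6, length under 10000 bp, control overlap of 10 bp). The rule that replicates share 1 bp was set here. The methods also keep only regions open in snATAC-seq, data not used here, so the sites differ from the final set of the study. The paper's count of sites reproducible across replicates also differs from the 11947 found here, so that step is not the only difference.

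The background of each library was recovered as the value at which folds of 30 or less give whole fragment numbers (within 0.02) whose Poisson p matches the deposited one (within 2%), and the intervals are exact Poisson intervals of 95%. A peak list gives no read total, so the depth is known only as fragments at a summit. Steps were tested on simulated data.

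Genes came from GENCODE M21, and the principal start is that of the APPRIS principal transcript with the longest coding sequence. Sequences were read from RefSeq GRCm38.p6, the same build as mm10. RefSeq promoter windows were found for 69 of the 78 members, and all 75 windows were identical to the genome. Python 3.11.15, NumPy 2.4.6, pandas 2.3.3, SciPy 1.17.1 and pysam 0.24.0 were used.

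Members, gene lists and motifs were chosen with earlier results of these data known, so no set test was run. Named genes are the 10 highest by lower fold, those without a promoter site, the 5 whose ratio between replicates is farthest from the median ratio of 1.19 on the log2 scale, shared promoters, sites away from starts and, in each list, the 3 highest and those with no peak or no site. Genes named for their role, the genes just inside the threshold, the sequences and the chromosomes were chosen after their values were seen. Alternatives varied the thresholds, the windows, the ETS core and the replicates. The other motifs were searched in 1 way only.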

Additional observations from a re-analysis of the deposited data

How the results depend on the processing

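The count of genes with a promoter site fell from 64 to 35 at a minimum fold of 10 (44.9%, against 19.8% of all genes), and that with a site in the region from 65 to 41 (52.6% against 27.7%). Under every other alternative run for them, these counts were within 1.5 times the reported ones. Leaving out each library in turn gave 64 to 71 genes with a promoter site and 65 to 71 with a site in the region. The median lower fold was 10.6 to 12.5 when a Foxr2 p53LOF replicate was left out, and 10.6 once folds were scaled to the median of their chromosome. The ETS core at the summit moved with the window, from 6 genes to 2 within 50 bp (3.12% against 1.90%) and 17 within 250 bp (26.6% against 21.4%). The search at the starts and its alternatives were added after the data were seen. The ETS core at the start was found at 35 genes from 100 bases before to 100 after the start (44.9% against 9.50%), at 43 with its first 6 letters (55.1% against 18%) and at 13 when followed by T (16.7% against 5.00%). No paired analysis was possible because nothing but a replicate number links the lines, and the results come from no test. With 13 and 18 fragments at the threshold, genes near a fold of 6 cannot be ordered.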
